A study of Caenorhabditis elegans with 4 samples.

Results

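Chromosome II carried 893 of the 5338 peaks in the series-wide list of a ChIP-seq study of NHR-28 in Caenorhabditis elegans. Its members were chosen by position alone, as every entry of that list placed on chromosome II of build WS220, and they are described here against the 4260 peaks on the other 4 autosomes. All worms were L1 hermaphrodites of strain OP317, carrying unc119(ed3) and the transgene wgIs317(nhr-28::TY1 EGFP FLAG;unc119), introduced by bombardment, so the tagged protein came from an added copy of the gene in a single strain. The submitters describe its expression as matching that of nhr-28 in place and time. They were grown at 20 °C on E. coli HB101, while the stage label reads L1 26dC without explaining the suffix. There was no untagged strain and no other condition among the groups, which comprised 2 ChIP samples, precipitated with anti-GFP antibodies, and 2 samples of input chromatin. The values behind this text are the peak list of each ChIP sample and that of the whole series, without the input. Whether the replicates came from separate cultures was not stated, so comparisons between them may measure technical spread only. No gene is named for any peak, because no gene annotation of WS220 was used.

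NHR-28 belongs to the nuclear hormone receptors, transcription factors that bind DNA through a zinc-finger domain and, in many members, respond to small lipophilic ligands. The family is greatly expanded in nematodes. Each C. elegans autosome has a gene-dense central region with little recombination, flanked by arms that recombine more and hold more repeats and more rapidly evolving genes. The centre of chromosome II was taken as the peaks with a midpoint from 4.88 to 12.02 Mb, which left 253 peaks in the left arm, 379 in the centre and 261 in the right arm.

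The 3 strongest chromosome II peaks lay in the centre and recurred in both ChIP samples. Strength is the significance value that the authors' peak caller gave each peak, where smaller is stronger, and it ranks peaks only within a list. The values were at or under 0.001 in all lists, and whether they are p-values or q-values was not stated. The strongest member lay at 9112522 to 9113935, was 1414 bp wide and had a value of 2.45e-22. Replicate 1 listed it at 3.71e-11 and replicate 2 at 1.99e-07. The next lay at 9603014 to 9603737 with 1.12e-20, and here the order of the replicates was the other way, with 1.40e-08 in replicate 1 and 1.50e-11 in replicate 2. A narrow peak of 316 bp at 11759203 to 11759518 had 2.16e-18, with 2.55e-10 and 2.11e-08 in the replicates. These 3 peaks ranked 16, 23 and 35 in the whole series-wide list, so the chromosome held strong regions without holding any of the first 15. Chromosome II supplied 19 of the first 100 peaks of that list (19.0%) and 16.7% of all of it.

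Among the 20 strongest peaks found in both replicates, 14 lay in the centre, 4 in the right arm and 2 in the left arm. Presence in both lists was a condition of this set, which leaves out peaks of similar strength in a single list. Of all 46 peaks in both lists 26 lay in the centre, 9 in the right arm and 11 in the left arm. The peaks that start at 5844623 and 5882531, among the 14, belong to 1 block of neighbouring peaks, described below. Among all chromosome II peaks, values under 1e-06 made up 17.2% in the centre and 14.8% in the arms. The narrowest of the 20 measured 316 bp, the widest 5605 bp and the median one 505.5 bp. In the right arm the strongest in both lists lay at 12102180 to 12102683 (504 bp, 6.13e-18), at 14039609 to 14040637 (1029 bp, 2.06e-17) and at 13829533 to 13830117 (585 bp, 1.52e-14). In the left arm they lay at 2972968 to 2974173 (1206 bp, 1.39e-17), at 2570441 to 2570897 (457 bp, 3.87e-14) and, outside these 20, at 4851694 to 4852063 (370 bp, 3.59e-10). The replicates gave the left-arm leader 8.61e-04, which ranked 114 of the 127 chromosome II peaks of replicate 1, and 4.94e-05, which ranked 34 of the 155 of replicate 2. The other centre members of the 20 had values from 3.21e-18 to 3.21e-12. The first of them, 5882531 to 5888135, was the widest peak of the chromosome at 5605 bp, and the replicates gave it 1.42e-05 and 7.39e-04. The peak at 11979957 to 11980400 (444 bp, 4.44e-18) had near-equal replicate values of 7.92e-09 and 9.73e-09. It was followed by 5543392 to 5543895 (504 bp, 8.84e-18) and 5844623 to 5845142 (520 bp, 1.25e-14). Towards the right of the centre lay 4 of them, at 10563314 to 10563744 (1.32e-13), 10868775 to 10869099 (5.12e-14), 10949980 to 10950486 (9.53e-14) and 11635665 to 11636517 (8.34e-13). Elsewhere in the centre lay 6588844 to 6589328 (2.06e-14), 8185012 to 8185344 (3.21e-12) and 8561095 to 8561788 (6.54e-14). The right-arm peak at 15025716 to 15026128 completed the set with 1.40e-12.

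A peak was counted as found in a replicate when it overlapped a peak of that list by at least 1 bp. On chromosome II 46 of 893 peaks were in both lists, or 5.15% (Wilson 95% interval 3.88 to 6.80), against 4.23% of the autosomal peaks outside II and 4.5% of the whole list. A further 74 were in replicate 1 alone, 90 in replicate 2 alone and 683 (76.5%) in neither. Together 210, or 23.5% (20.9 to 26.4), were in at least 1 list, against 22.1% on the other autosomes and 22% of the whole list. Neither share was shown to differ from the other autosomes: the difference was 0.926 percentage points for both lists (95% interval -0.497 to 2.67) and 1.38 points for at least 1 list (-1.57 to 4.52), with p = 0.50 for each (Fisher's exact test, two-sided, Benjamini-Hochberg adjusted over 8 comparisons). The difference for at least 1 list was larger when replicate 1 was left out (2.98 points, adjusted p = 0.053) and when III was left out of the background (3.24 points, and 1.69 for both lists, adjusted p = 0.076 for each), again short of the threshold in Fisher's exact test. These tests treat peaks as units, and neighbouring peaks may not be independent. Both ChIP samples belong to the series, so a match between a replicate and the series-wide list is not independent evidence.

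Replicate support followed strength closely on chromosome II. Each of the 28 peaks with a value under 1e-10 overlapped a replicate peak, and 21 of them (75%) overlapped peaks of both. From 1e-10 to 1e-06 these numbers were 84 (74.3%) and 23 (20.4%) of 113 peaks, from 1e-06 to 1e-04 they were 77 (27.02%) and 0 of 285, and over 1e-04 they were 21 (4.50%) and 2 of 467. The other autosomes gave 98.6%, 71.8%, 25.4% and 3.88% in at least 1 list over the same classes. The pair of weak peaks that both replicates nevertheless listed, chosen after their values were seen, lay at 132 to 500, the first peak of the chromosome (2.85e-04), and at 4641110 to 4641484 (1.25e-04).

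**Figure D1:**
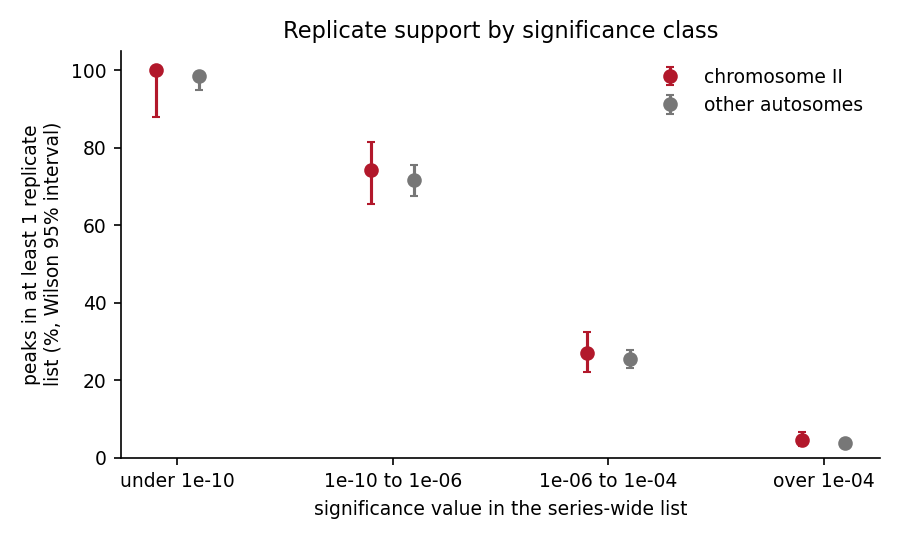
Share of series-wide peaks in at least 1 replicate list (vertical axis, percent, with Wilson 95% intervals) by class of the authors' significance value, for chromosome II and for the other autosomes. On chromosome II the share fell from 100% under 1e-10 to 4.50% over 1e-04, and the intervals of the 2 sets of chromosomes overlap in every class.

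Some strong peaks lacked support from 1 or both replicates. The strongest that neither replicate listed lay at 2935600 to 2936528 (929 bp, 5.12e-09), followed by 13636337 to 13636936 (2.69e-08), 15224244 to 15224324 (only 81 bp wide, 2.73e-08), 6928344 to 6928805 (4.98e-08) and 4507225 to 4507698 (5.75e-08). In replicate 1 the strongest peaks without a replicate 2 partner were 14251384 to 14251791 (7.69e-08), 15268726 to 15269260 (1.23e-07) and 155979 to 156234 (1.35e-07), and the series-wide list gave those regions 7.66e-14, 2.40e-12 and 1.53e-10. In replicate 2 the strongest without a partner were 12094555 to 12094984 (1.12e-09), 6348195 to 6348953 (1.59e-08) and 12045081 to 12045400 (2.52e-08). The series-wide list held the last of these at 1.20e-12 and 6348115 to 6348975 at 7.39e-10. It did not hold the first as 1 region: the 430 bp peak of replicate 2 appeared there as fragments of 19 bp and 37 bp with the larger values 9.09e-06 and 6.69e-07.

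The replicate lists themselves held 127 chromosome II peaks in replicate 1 and 155 in replicate 2, of 806 and 803 in all. In replicate 1, 43 peaks (33.9%, Wilson 26.2 to 42.5) overlapped a replicate 2 peak, against 26.8% on the other autosomes. In replicate 2, 44 peaks (28.4%, 21.9 to 35.9) had a partner, against 27.9%. The differences were 7.07 percentage points (-1.35 to 16.3, adjusted p = 0.43) and 0.495 points (-6.95 to 8.76, adjusted p = 0.92) in Fisher's exact tests, two-sided, and did not pass the threshold of 0.05. Partnered peaks were the wider ones, with a median width of 348 bp against 218.5 bp for unpartnered peaks in replicate 1 and 306 bp against 199 bp in replicate 2. Among the 20 strongest chromosome II peaks of each list 16 and 14 had a partner, and among the 20 weakest 5 and 2. Most unpartnered peaks were not near misses: 10 of 84 in replicate 1 and 10 of 111 in replicate 2 lay within 1 kb of a peak of the other list.

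Matched peaks lay close together. Of the matched peaks 42 pairs were one-to-one. The median distance between the midpoints of a pair was 39.5 bp, with 34 pairs (81.0%) within 100 bp and the farthest at 388.5 bp. Across these pairs the −log10 values had a Pearson's r of 0.68 and a Spearman's rho of 0.67, and r was 0.66 without the 2 strongest pairs. The points share 2 libraries and are given as a description. In 3 of the 46 peaks found in both lists the replicate peaks did not touch each other but overlapped different parts of 1 series-wide peak, among them 2972968 to 2974173 and 5882531 to 5888135. Of the replicate peaks, 7 in replicate 1 and 19 in replicate 2 were not in the series-wide list, and none of these had a partner. In replicate 1 the strongest of them lay at 4372269 to 4372281 (3.03e-04), 13016041 to 13016161 (3.20e-04) and 6965354 to 6965530 (4.09e-04). In replicate 2 they lay at 7350021 to 7350212 (2.04e-04), 13955833 to 13956068 (2.05e-04) and 506157 to 506659 (2.18e-04).

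Single-list support on chromosome II came more from replicate 2 by count. Replicate 2 supplied 90 of the 164 peaks in a single list (54.9%), against 44.8% on the other autosomes, a difference of 10.1 percentage points (1.63 to 18.3). Fisher's exact test gave p = 0.020, two-sided, which did not pass after adjustment (p = 0.16). The imbalance was largest from 12 to 13 Mb, where replicate 2 had 20 peaks, replicate 1 had 7, and 18 series-wide peaks were in replicate 2 alone against 5 in replicate 1 alone. That excess of 13 was the highest among 80 full 1 Mb bins of the autosomes, followed by 7 at 0 to 1 Mb of II. An excess of 6 was shared by 13 to 14 Mb of II and by 9 to 10 Mb and 15 to 16 Mb of IV. These bins were singled out after their values were seen.

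Among the domains of chromosome II the right arm was the densest in peaks, and both ends were dense against the whole chromosome. There were 51.8 peaks per Mb in the left arm (Poisson 95% interval 45.7 to 58.6), 53.1 in the centre (47.9 to 58.7) and 80.2 in the right arm (70.8 to 90.6). The left arm thus held 253 of 514 arm peaks (49.2%), on 60.01% of the arm length (exact binomial test, two-sided p = 8.4e-07). The right arm also led in peaks with replicate support, with 21.5 per Mb in at least 1 list (16.8 to 27.2), against 11.1 in the left arm and 12.04 in the centre. In the replicate 2 list the densities were 7.99, 9.38 and 15.1 per Mb from left to right. In the replicate 1 list they were 7.99, 7.70 and 10.1, and the left arm share of 54.2% did not pass the test there (exact binomial test, p = 0.34). Peaks found in both lists did not follow this order, with 2.25 per Mb in the left arm, 3.64 in the centre and 2.77 in the right arm, and intervals that overlap.

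**Figure D2:**
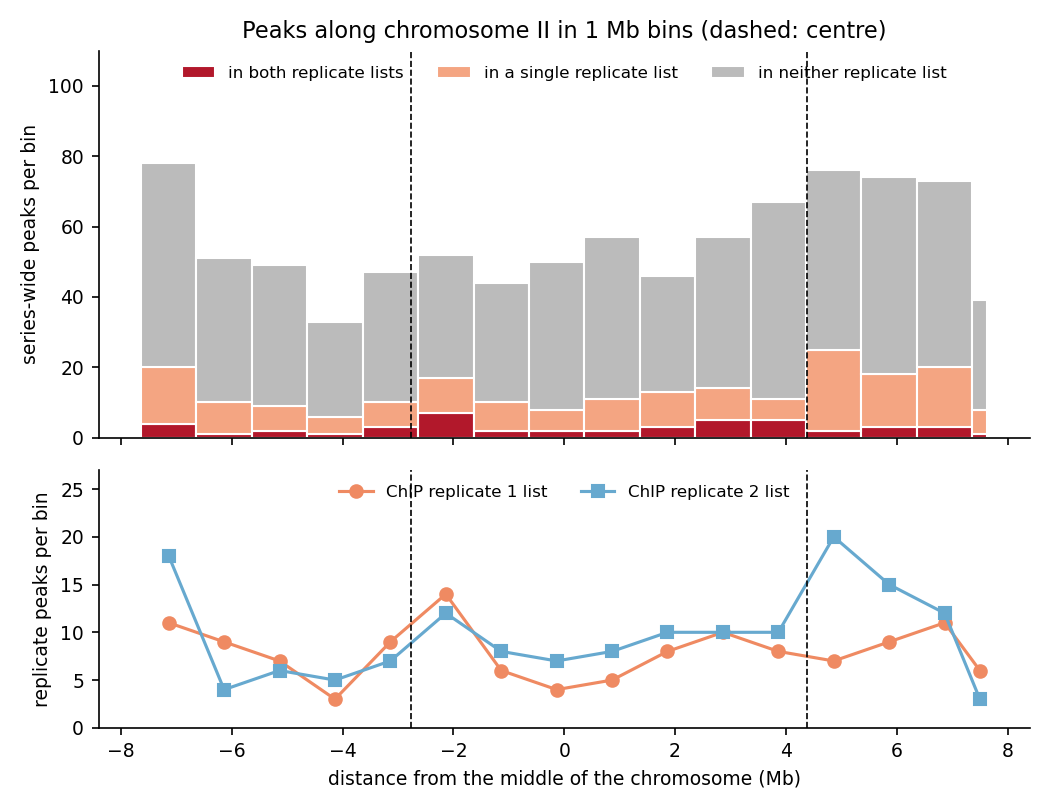
Peaks along chromosome II in 1 Mb bins, placed by distance from the middle of the chromosome. The upper panel stacks series-wide peaks by replicate support, the lower panel gives each replicate list, and dashed lines bound the centre. The 15 full bins held 33 to 78 series-wide peaks, and replicate 2 stood at 20 against 7 in the bin from 12 to 13 Mb, which the right boundary of the centre crosses near its start.

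The centre held 379 of 893 peaks (42.4%, exact 95% interval 39.2 to 45.8) while it spanned 46.8% of the length. This was 0.908 times the number that its length predicts (p = 0.012 in an exact binomial test, two-sided and adjusted over 5 autosomes). The same ratio was 0.920 on I, 0.888 on III, 0.828 on IV and 0.893 on V, so a centre below its length share was common to all 5 autosomes. The result for II was not kept when peaks within 2 kb of each other were counted once (43.9%, exact binomial test, adjusted p = 0.13). The left arms of the other autosomes had 67.4 (I), 83.3 (III), 60 (IV) and 50 (V) peaks per Mb, their centres 59.6, 71.5, 53.7 and 44.4, and their right arms 71.5, 94.7, 91.5 and 62.4. The right arm was the densest domain on each of the 5 chromosomes. Only on II was the left arm below the centre, and those 2 densities have overlapping intervals.

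**Figure D3:**
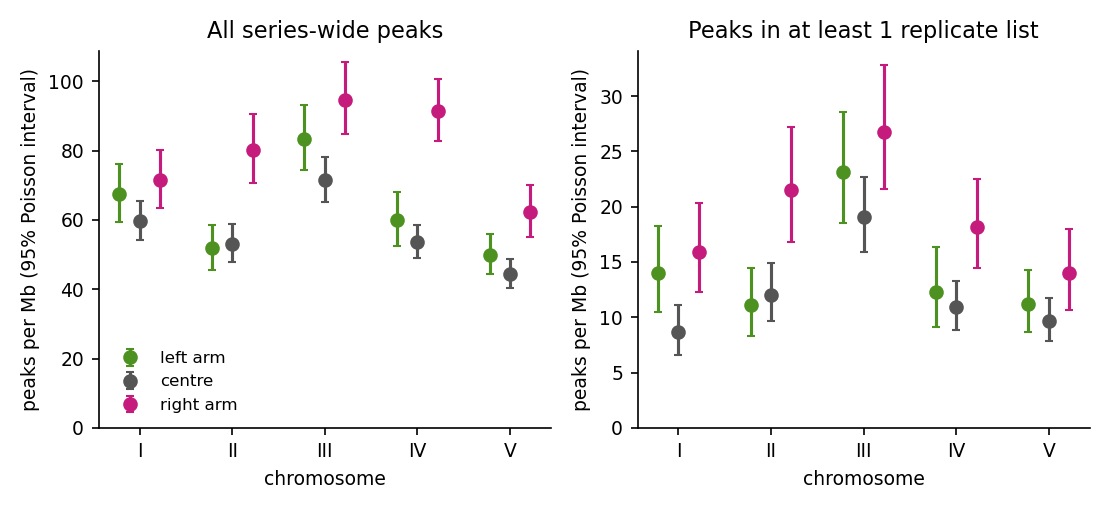
Peaks per Mb in the left arm, centre and right arm of each autosome, with 95% Poisson intervals, for all series-wide peaks and for those in at least 1 replicate list. On chromosome II the right arm stood at 80.2 per Mb, above both other domains, whose intervals overlap.

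Both ends were dense against the whole chromosome. Windows of 0.25 Mb inside the chromosome were not counted, so the ends are not ranked against them. The first 0.25 Mb of chromosome II held 36 peaks, or 144 per Mb (101 to 199), and the last 0.25 Mb held 38, or 152 per Mb (107.6 to 208.6), against 58.5 over the whole chromosome. Of these, 11 on the left and 7 on the right were in at least 1 replicate list, and 3 and 1 were in both. Outside these ends the right arm still held 74.3 peaks per Mb (64.8 to 84.7) and the left arm 46.9 (40.8 to 53.5). The same windows on the other autosomes ran from 28 per Mb, at the right end of I, to 168 per Mb, at the right end of V. Apart from the right end of I, each held at least 92 per Mb, against 49.7 to 80.5 over the whole of these chromosomes. Dense ends were thus not particular to II. In 1 Mb bins the sparsest full bin of II was 3 to 4 Mb, with 33 peaks, and the densest was 0 to 1 Mb, with 78. Windows at the ends were chosen after the data were seen and carry no test.

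Peaks had a median width of 170 bp on chromosome II (quartiles 74 and 291 bp), against 161 bp on the other autosomes, and ran from 2 to 5605 bp. Those at least 300 bp wide made up 23.6%, against 21.9% elsewhere, a difference of 1.75 percentage points (-1.20 to 4.89; Fisher's exact test, adjusted p = 0.50). Width and strength moved together across the 893 peaks, with a Spearman's rho of 0.52, and 0.52 on the other autosomes. The width of a peak also went with replicate support: 12 of 153 peaks under 50 bp (7.84%) had a match in either replicate and 0 had a match in both, whereas 38 of 59 peaks from 500 to under 1000 bp (64.4%, 51.7 to 75.4) were in at least 1 and 15 (25.4%) in both. Of the 15 peaks of 1000 bp or more, 8 (53.3%, 30.1 to 75.2) were in at least 1 and 5 (33.3%) in both. On the other autosomes 5.87%, 62.1% and 72.4% (54.3 to 85.3) of the peaks in these 3 classes were in at least 1 list. The shares in both lists there were 0, 26.9% and 51.7%. The widest class thus stood lower on II by count, with few peaks and overlapping intervals for at least 1 list. Of these 15 peaks 12 lay in 1 block in the centre, described below, and the 3 outside it were all in both lists. The lower shares therefore came from that block. Its peaks are neighbours, so the interval may be too narrow. Chromosome II peaks in both lists had a median width of 452.5 bp. Peaks in replicate 1 alone had a median of 277.5 bp, those in replicate 2 alone 214 bp and those in neither 140 bp.

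Most of the widest peaks stood in 1 place. From 5844623 to 5900422, in the centre, 16 peaks followed each other with gaps of under 5 kb and covered 28239 of 55800 bp, or 50.6%. This block held 1.79% of the chromosome's peaks and 13.7% of its peak bases. The median peak in it was 1408 bp wide, and 12 of the 15 chromosome II peaks of at least 1000 bp lay there, while the other autosomes together had 29 such peaks among 4260. The widest was 5882531 to 5888135 at 5605 bp (3.21e-18), followed by 5852416 to 5855192 (2777 bp, 1.94e-04), 5873926 to 5876535 (2610 bp, 1.56e-07), 5845651 to 5848113 (2463 bp, 3.36e-07) and 5880156 to 5882274 (2119 bp, 2.38e-04). Only the first of these 5 was in both replicate lists, and the other 4 were in neither.

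The replicate lists covered less of the block than the series-wide list did, as they did over the whole chromosome. Replicate 1 had 5 peaks there covering 10.7% of its span and replicate 2 had 6 covering 8.05%, and in either list 2 of these were partnered. The bases in replicate 1 peaks came to 21.2% of those in series-wide peaks in the block and 18.9% over all of chromosome II. For replicate 2 these ratios were 15.9% and 21.4%. Of the 16 series-wide peaks 3 were in both lists and 8 were in at least 1. The nearest peaks outside lay 8014 bp before the block and 10910 bp after it. The most covered 50 kb window of any other autosome was 22.7% covered, on IV at 9035001 to 9085000, against 50.5% on II at 5850001 to 5900000. On the X chromosome a single peak of 36756 bp, at 16343224 to 16379979, was wider than any on II. Input signal, copy number and the sequence of these regions were not compared with the peaks, so their part in the block was not tested. The block was singled out after the data were seen.

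**Figure D4:**
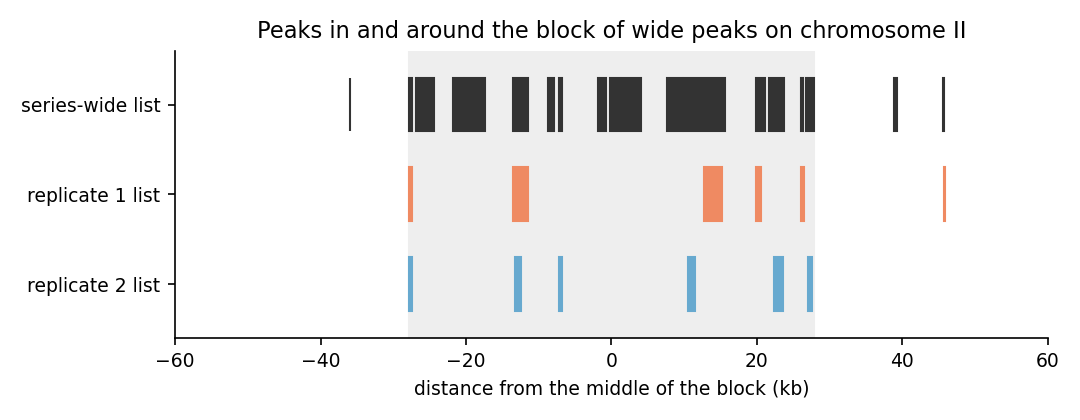
Map of the peaks around the block of wide peaks, by distance in kb from its middle, in the series-wide list and the 2 replicate lists; the shaded span is the block of 55800 bp. The series-wide peaks cover 50.6% of the span, and the 5 and 6 peaks of the replicate lists cover 10.7% and 8.05%.

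**Figure D5:**
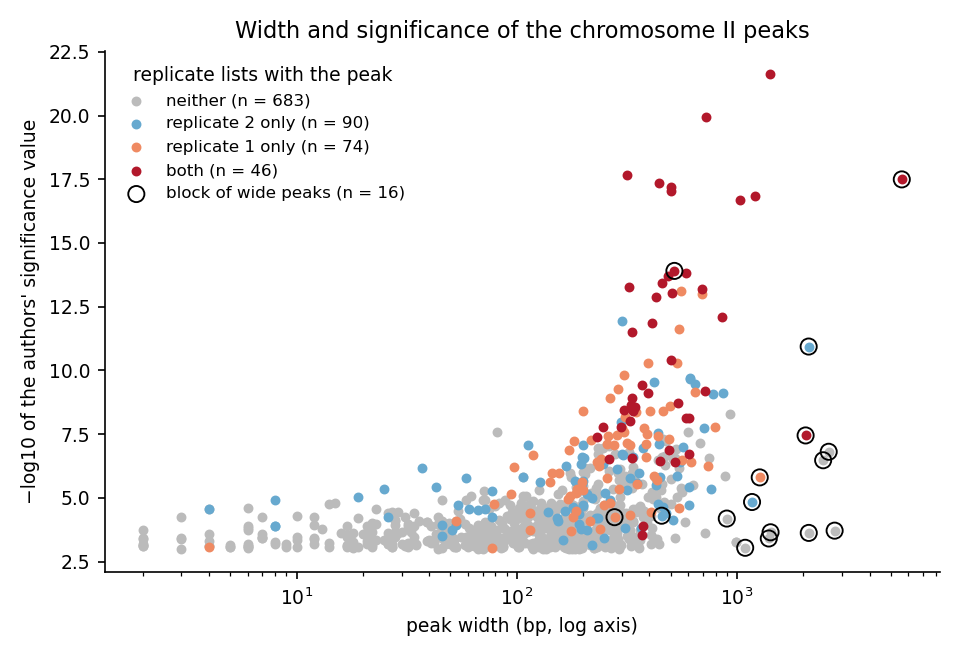
Width (log axis, bp) against −log10 of the authors' significance value for the 893 chromosome II peaks, coloured by replicate support, with the 16 block peaks ringed. Of the 46 peaks in both lists, whose median width was 452.5 bp, 21 had values under 1e-10, 23 from 1e-10 to 1e-06 and 2 over 1e-04, and the ringed peaks reach 1000 bp and more, several of them with low significance.

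Spacing on chromosome II was uneven, with short gaps and long empty stretches, as it was on the other autosomes. The standard deviation of the gaps was 1.24 times their mean on II and 1.24 times on the other autosomes. The median distance from the end of a peak to the start of the next was 9360.5 bp (quartiles 3042 and 23513.8 bp), against 8914.5 bp on the other autosomes, and no neighbours lay closer than 201 bp. A neighbour within 2 kb was found for 294 peaks (32.9%), against 32.4% elsewhere (difference 0.481 points, -2.84 to 3.92; Fisher's exact test, adjusted p = 0.90). Joined across gaps of up to 2 kb, these formed 126 clusters, of which 94 were pairs, 23 held 3 peaks, 8 held 4 and 1 held 5. The largest lay at 13465843 to 13469772, in the right arm, where a peak of 502 bp in both lists (3.75e-11) stood among 4 weak peaks that neither replicate listed. The next by size were 13635880 to 13640488, 13004556 to 13008359, 15220722 to 15224324 and 11634160 to 11637600, with 4 peaks each. The last of these, in the centre, was 58.4% covered and held 2 peaks found in both lists. Clustered peaks were in at least 1 replicate list in 28.2% of cases (23.4 to 33.6) and single peaks in 21.2% (18.1 to 24.7).

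Close neighbours were fewer in the centre by count. In the centre 107 of 379 peaks (28.2%) had a neighbour within 2 kb, against 187 of 514 in the arms (36.4%), a difference of -8.15 points (-14.2 to -1.92). The test missed the threshold after adjustment over 5 comparisons (Fisher's exact test, p = 0.058) and passed it without the block (-11.0 points, adjusted p = 0.0027). When 1 peak has a close neighbour, that neighbour has one too, so both count. The units of this test are therefore linked, and its p-values and interval may overstate the evidence. The difference was smaller, and did not pass in Fisher's exact test, with gaps of 1 kb (-2.97 points, adjusted p = 0.44), without peaks under 50 bp (-3.91, adjusted p = 0.33) and in peaks at or under the median value of the list (-3.79, adjusted p = 0.46). The right arm stood highest at 39.1%, with the left arm at 33.6%, and peak density followed the same order between the arms. The centre broke that order: it had the lowest share, 28.2%, at 53.1 peaks per Mb against 51.8 in the left arm. The 5 longest stretches without a peak were 3147802 to 3287794 (139993 bp), 7529465 to 7662037 (132573 bp), 6119399 to 6250855 (131457 bp), 1685717 to 1816650 (130934 bp) and 2220028 to 2340640 (120613 bp). Of the 10 gaps over 100 kb 6 lay in the left arm, 4 in the centre and 0 in the right arm, whose longest gap was 72440 bp. These domains span 4.88, 7.14 and 3.25 Mb. The other autosomes had 27 gaps over 100 kb among 4256, against the 10 among 892 on II. Whether the gaps could hold mappable sequence was not tested.

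The centre and the arms were then compared in strength, width and support. Peaks in both lists made up 6.86% of centre peaks (26 of 379) and 3.89% of arm peaks (20 of 514). The difference was 2.97 points (0.0139 to 6.26, Fisher's exact test, p = 0.065, adjusted p = 0.16). The interval just left out 0, but the test did not pass even before adjustment. Without the block the difference was 2.45 points (Fisher's exact test, adjusted p = 0.28). This contrast in both lists was not tested on the other autosomes. In at least 1 list the shares were 22.7% and 24.1% (Fisher's exact test, adjusted p = 0.63), and values under 1e-06 made up 17.2% and 14.8% (adjusted p = 0.44). Peaks of at least 300 bp made up 26.4% and 21.6% (difference 4.79 points, -0.836 to 10.5; Fisher's exact test, adjusted p = 0.18). With a limit of 500 bp the shares were 12.1% and 5.45% and the Fisher's exact test passed (adjusted p = 0.0025), but not without the block (difference 3.37 points, adjusted p = 0.14). The difference between centre and arms in support by at least 1 list was -1.43 points on II and -2.09 points on the other autosomes. The interaction of chromosome with domain did not pass in a logistic regression over 5153 peaks (likelihood-ratio chi-square test, p = 0.81).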

How the data were processed

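The files are 3 GFF peak lists, 1 for each ChIP sample and 1 for the series. PeakSeq, which scores ChIP regions against a control, was the peak caller and WormBase WS220 the build, per the file headers and source field. Its version and threshold, the aligner, the control and any pooling of reads are not stated in these sources. Each deposited line has a start, an end and 1 p-value or q-value. Depth behind a peak is unknown, and intervals cover counting error only. Coordinates count from 1.

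Midpoints set the domain of a peak. Boundaries of the other autosomes were recalled from the published recombination map. Chromosome length was the largest peak end in any list. Fisher's exact and exact binomial tests were two-sided with a threshold of 0.05 (scipy 1.17.1), and intervals of differences were Newcombe's (statsmodels 0.14.6). The exact binomial test was tried on simulated peak positions that were independent of each other. Fisher's exact test was tried on simulated counts of independent units, without simulated peaks or overlaps. The intervals were not tried. How both kinds of test behave with clustered peaks was not tested. Alternatives covered the overlap rule, width, gap, significance, list, boundaries, background and each replicate left out.

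Named regions were the 20 most significant in both lists, the 3 most significant in both of each domain, the 5 most significant in neither, the 3 most significant unpartnered and the 3 outside the series-wide list of each replicate, the 5 widest, the 5 largest 2 kb clusters and the 5 longest gaps. The members and lists were chosen with earlier results of these data known. Sequence and gene context were planned only with a genome of the files' build and were not analysed here.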

Additional observations from a re-analysis of the deposited data

How the results depend on the processing

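Of 101 recomputed values 75 kept their direction and their side of the threshold. Most of these 75 belong to results that missed the threshold before and after the change. With a replicate left out, support by both lists and by at least 1 list become the same measure, so those values are counted under both names. The left arm's part of the arm peaks passed under 6 of 7 alternatives (from 43.5%) and missed in the replicate 1 list (54.2%). Among those 6 is the list without the block of wide peaks. Leaving it out removes centre peaks only, so this value could not change and adds no evidence, although it is counted in the 75. The centre's share missed the threshold with clusters counted once (43.9%), in peaks of at least 1 replicate list (41.0%) and in the replicate 1 and 2 lists (43.3% and 43.2%), where fewer regions are tested. The centre-arm difference in neighbours passed with gaps of 5 kb (-9.98 points), in the central 33.3% of the length (-10.1) and without the block of wide peaks (-11.0; -12.2 at 5 kb and -14.7 in the central 33.3%); it shrank to -2.97 with gaps of 1 kb, -3.91 without peaks under 50 bp and -3.79 in peaks at or under the list's median value; the cause was not tested. The difference in wide peaks passed at 500 bp (6.69 points) and in the central 33.3% (7.84), but under neither without the block (3.37 and 3.49), which holds wide centre peaks. All alternatives without the block were chosen after the data were seen. In the neighbour tests both peaks of a close pair count, so passing the threshold there may overstate the evidence.

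Sign changes came only in results that passed the threshold neither as planned nor after the change. With 50% reciprocal overlap the replicate 2 partner share was 20.6% (23.9% elsewhere) and the centre-arm difference in support by at least 1 list was 0.182 points. That difference was 0.587 to 0.949 points with a replicate left out, 1.24 in peaks at or under the list's median value and 0.829 in the central 33.3%. With replicate 2 left out 13.4% of chromosome II peaks were supported against 14.1% elsewhere; with replicate 1 left out it was 15.2% against 12.3%, a difference of 2.98 points in place of 1.38, and without III in the background 3.24 points. At 1e-04 the strong share was 47.7% (49.1% elsewhere) and its centre-arm difference -0.825 points. Without the block the share with a neighbour was 31.8% (55.1% at 5 kb), the share of at least 500 bp 6.84%, and the interaction -0.542 points. No paired analysis was possible because the tests compare sets of peaks and no groups of samples. Depth is unknown, so absence from a list is not absence of binding.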
